A study of Mus musculus with 9 samples.

Results

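The genes described here are the mouse splicing genes whose symbols start with Srsf, Snrp or Sf3: the SR protein genes, the small nuclear ribonucleoprotein (snRNP) protein genes and the genes of the SF3A and SF3B complexes. They were taken by symbol alone from the protein-coding RefSeq genes of GRCm38, which gave 32 genes of 21887, 11 of them Srsf, 12 Snrp and 9 Sf3. The strand was known for 28 of the 32, and these 28 were read at the start of the gene record. Snrpb, Snrpd1, Sf3b4 and Sf3b5 were read at either end of the gene and are given apart. The study measured chromatin in MYCN-driven T cell lymphoma cells from the thymus of C57BL/6J mice by ChIPmentation, a form of chromatin immunoprecipitation in which a transposase adds the sequencing adapters on the beads. EZH2, SUZ12, N-MYC, p300, H3K4me3, H3K27ac and H3K27me3 were each precipitated in 1 library with a deposited peak list, and 2 input libraries carried no list. All libraries came from lymphoma cells, so there was no normal or untreated group. The promoter driving MYCN, the age of the mice and the number of animals behind each library are not given in the sources used here. With 1 library per antibody, no value below has a replicate error and no difference was tested. The title of the series gives the question, EZH2 as an activator of transcription in lymphoma with aberrant MYCN.

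Splicing removes introns from pre-mRNA in the spliceosome, whose building blocks are small nuclear RNAs bound by proteins. SR proteins bind exonic sequences and recruit the early spliceosome, the Sm proteins form a ring around the small nuclear RNAs, and SF3A and SF3B are parts of the U2 snRNP that settle it on the branch point. MYC-family factors are known to raise the expression of several of these genes, and MYC-driven cells are known to depend on core splicing. EZH2 is the methyltransferase of Polycomb repressive complex 2, which places H3K27me3 on silent genes with SUZ12 as a core partner. H3K4me3 marks active or poised gene starts, H3K27ac active ones, and p300 is an acetyltransferase that writes H3K27ac.

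The lists held from 9798 peaks (N-MYC) to 123056 peaks (H3K27me3), and the read depth of the libraries is not given in the sources used here. A value below is the fold enrichment of a peak over its local background, as the authors deposited it, and a missing peak means only that none passed the authors' threshold, a q-value of about 0.01. Of the T cell marker genes, 8 of 8 carried H3K4me3 at a start. Of the B cell genes, Cd79a and Cd79b carried it at folds of 4.74 and 5.75, and Ms4a1 and Pax5 had no H3K4me3 call. It was called at 0 of 5 myeloid genes, 1 of 5 thymic epithelial genes (Epcam) and 3 of 3 erythroid genes (Hbb-bs, Klf1 and Gata1). H3K27ac was called within 1 kb of a start at 4 of the 5 myeloid and 2 of the 5 thymic epithelial genes. The part of such other cells in the calls at the splicing genes was not tested.

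Of the gene starts on which the results turn, 8 promoter sequences follow, each of 300 bases from 250 before to 50 after an annotated transcript start, written 5′ to 3′ on the strand of the gene (RefSeq, GRCm38.p6). Capitals mark CACGTG (the canonical E-box bound by MYC with MAX), CACGCG (a variant E-box), CCGGAAG (an ETS-type motif) and TATAAA on either strand. Snrpa is shown at both of its annotated starts because it was the one gene with CACGTG. Snrpc, Srsf12 and Snrpn are shown because a call was missing there. Srsf6, Srsf7 and Snrpe were chosen after their values were seen: Srsf6 had the highest H3K4me3 fold and the most CACGCG copies, Srsf7 the highest N-MYC fold, and Snrpe an N-MYC summit beside its start and overlapping CCGGAAG copies.
Snrpa, chr7:27196222-27196521, minus strand: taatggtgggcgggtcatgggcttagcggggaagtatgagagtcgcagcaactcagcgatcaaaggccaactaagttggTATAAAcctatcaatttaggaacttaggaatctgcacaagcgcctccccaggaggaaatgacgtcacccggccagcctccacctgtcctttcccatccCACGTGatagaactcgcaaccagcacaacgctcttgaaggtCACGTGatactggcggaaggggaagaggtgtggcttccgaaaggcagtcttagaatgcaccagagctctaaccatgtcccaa
Snrpa second start, chr7:27195711-27196010, minus strand: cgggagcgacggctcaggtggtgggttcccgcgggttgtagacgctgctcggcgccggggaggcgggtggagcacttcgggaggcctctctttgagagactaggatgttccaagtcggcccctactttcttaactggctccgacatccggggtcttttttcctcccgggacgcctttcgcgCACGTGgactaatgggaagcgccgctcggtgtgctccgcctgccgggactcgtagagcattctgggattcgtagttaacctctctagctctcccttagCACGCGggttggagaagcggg
Srsf6, chr2:162931258-162931557, plus strand: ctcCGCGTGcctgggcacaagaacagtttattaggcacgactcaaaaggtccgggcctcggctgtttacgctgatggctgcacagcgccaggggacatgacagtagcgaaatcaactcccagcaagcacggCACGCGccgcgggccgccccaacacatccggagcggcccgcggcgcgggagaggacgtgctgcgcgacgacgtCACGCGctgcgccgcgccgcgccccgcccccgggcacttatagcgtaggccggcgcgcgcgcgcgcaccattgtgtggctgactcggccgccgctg
Srsf7, chr17:80207256-80207555, minus strand: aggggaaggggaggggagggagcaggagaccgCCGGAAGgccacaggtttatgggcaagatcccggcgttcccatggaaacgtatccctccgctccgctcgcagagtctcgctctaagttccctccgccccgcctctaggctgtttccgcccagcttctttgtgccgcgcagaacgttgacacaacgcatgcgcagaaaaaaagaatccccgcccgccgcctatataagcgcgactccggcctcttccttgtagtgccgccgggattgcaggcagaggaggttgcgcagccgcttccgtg
Snrpe, chr1:133610231-133610530, minus strand: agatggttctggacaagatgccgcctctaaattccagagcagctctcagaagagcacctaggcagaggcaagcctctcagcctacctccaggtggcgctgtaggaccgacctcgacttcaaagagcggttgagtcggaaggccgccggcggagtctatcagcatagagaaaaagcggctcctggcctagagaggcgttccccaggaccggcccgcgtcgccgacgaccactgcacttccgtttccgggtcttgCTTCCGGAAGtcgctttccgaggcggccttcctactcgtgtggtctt
Snrpc, chr17:27839837-27840136, plus strand: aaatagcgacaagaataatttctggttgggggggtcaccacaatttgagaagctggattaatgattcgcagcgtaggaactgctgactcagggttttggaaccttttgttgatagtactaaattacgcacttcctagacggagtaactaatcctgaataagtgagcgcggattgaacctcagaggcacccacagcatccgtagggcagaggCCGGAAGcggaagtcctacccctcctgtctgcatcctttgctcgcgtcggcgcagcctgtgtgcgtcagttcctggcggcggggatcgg
Srsf12, chr4:33209022-33209321, plus strand: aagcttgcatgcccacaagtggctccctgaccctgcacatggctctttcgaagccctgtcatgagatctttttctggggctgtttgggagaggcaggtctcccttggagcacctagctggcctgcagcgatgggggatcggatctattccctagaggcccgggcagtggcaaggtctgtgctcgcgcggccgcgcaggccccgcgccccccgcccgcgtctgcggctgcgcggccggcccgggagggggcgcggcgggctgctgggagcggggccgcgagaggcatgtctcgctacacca
Snrpn, chr7:60450128-60450427, minus strand: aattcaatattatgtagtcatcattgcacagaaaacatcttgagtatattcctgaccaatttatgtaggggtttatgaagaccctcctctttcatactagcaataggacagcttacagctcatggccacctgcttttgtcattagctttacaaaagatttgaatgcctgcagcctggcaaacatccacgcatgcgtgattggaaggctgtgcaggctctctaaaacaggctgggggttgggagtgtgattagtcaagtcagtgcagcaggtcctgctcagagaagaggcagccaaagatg

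Nearly every splicing gene carried the marks of an active start together with EZH2, N-MYC and p300, and none carried SUZ12 or H3K27me3. Within 1 kb of the start, an H3K4me3 peak was called at 27 of the 28 genes, against 49.6% of the 17492 protein-coding genes with a known strand. H3K27ac was called at 27 (49.8% of all genes), p300 at 26 (38.3%), N-MYC at 25 (31.6%) and EZH2 at 25 (43.1%). SUZ12 was called at 0 of 28 (12.2% of all genes) and H3K27me3 at 0 of 28 (23.8%).

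When peaks anywhere on the H3K4me3 peak at the start were counted, EZH2 was called at 26 of 27 genes, against 74.6% of the 8672 genes with H3K4me3 at the start. N-MYC was called at 25 of 27 (65.9%), p300 at 26 (78.2%) and H3K27ac at 27 (93.3%). All 4 were called together at 25 of 27 splicing genes, against 52.9% of genes with H3K4me3. SUZ12 lay over 0 of 27 (8.82%) and H3K27me3 over 0 of 27 (12.7%). EZH2 was thus called at these genes with no call of its complex partner or of the mark that the complex places. Calls of SUZ12 and H3K27me3 were also rare at other genes with strong H3K4me3, as given below. When each list was limited to its 9798 most significant peaks, the length of the shortest list, all 4 were called at 19 of 26 splicing genes with H3K4me3, against 39.9% of 7644 genes.

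**Figure D1:**
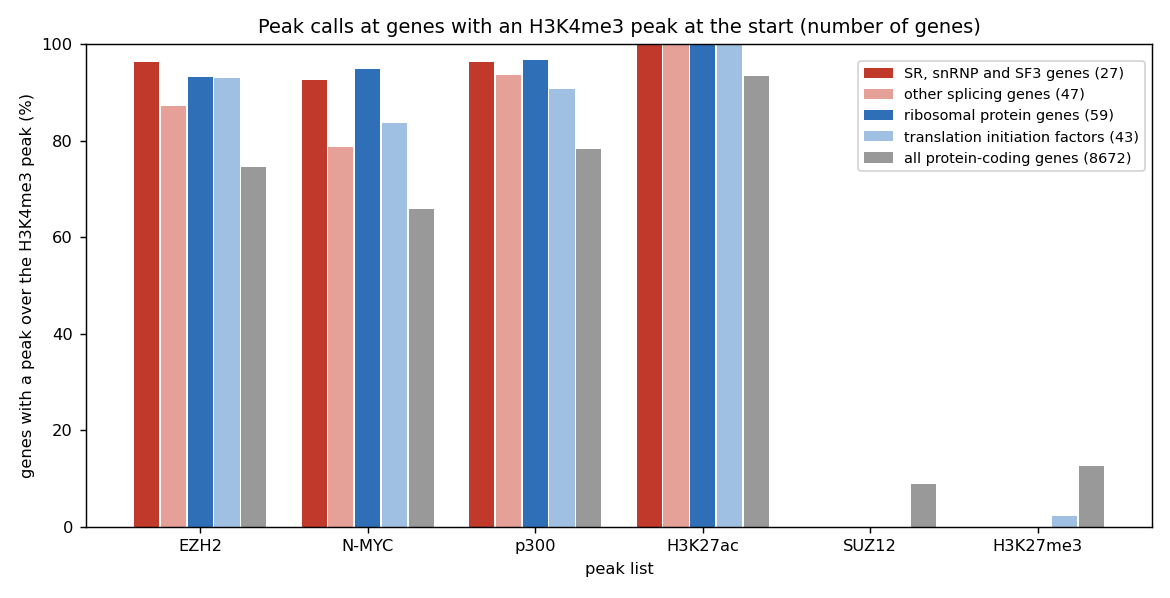
Bars give the percentage of genes with a peak of each list over the H3K4me3 peak at their start, on an axis from 0, for the splicing genes described here, other splicing genes, cytosolic ribosomal protein genes, translation initiation factor genes and all genes with H3K4me3, with the number of genes in the legend. The splicing genes stood at 96.3% for EZH2, 92.6% for N-MYC and 0 for SUZ12, against 74.6%, 65.9% and 8.82% of all genes with H3K4me3.

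Much of this share went with the strength of H3K4me3. The 8672 genes were ranked by their H3K4me3 fold and divided into 5 quintiles, and of the 27 splicing genes 11 fell in the highest quintile, 7 in the fourth, 7 in the third, 1 in the second and 1 in the lowest. In the highest quintile, 99.9% of all genes carried EZH2 and 87.1% N-MYC, and 11 of 11 splicing genes carried each. In the fourth quintile EZH2 was called at 96.0% of genes and at 7 of 7 splicing genes, and N-MYC at 78.7% and at 6 of 7. In the third quintile EZH2 was called at 81.6% and at 7 of 7 splicing genes, and N-MYC at 72.5% and at 7 of 7. So the count of EZH2 calls was near that of any gene with equally strong H3K4me3 in the 2 highest quintiles. In the 3 highest quintiles, where most splicing genes lay, SUZ12 lay over only 0.692% to 2.82% of all genes. H3K27me3 lay over 1.38% to 4.15% of them, and all 4 active lists were called together at 60.2% to 86.4%. The lack of SUZ12 and H3K27me3 calls was thus usual for genes with such H3K4me3 and not particular to the splicing genes.

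In the highest quintile the median EZH2 fold was 8.60 at the 11 splicing genes and 7.41 at all genes of the quintile, the median N-MYC fold 8.27 and 6.70, and the median p300 fold 7.01 and 6.02. In the fourth quintile the medians lay closer, at 5.88 and 5.73 for EZH2, 6.02 and 6.17 for N-MYC and 6.19 and 5.51 for p300. In the third, they were 5.57 and 4.97 for EZH2, 5.77 and 5.95 for N-MYC and 6.02 and 5.15 for p300. The splicing genes thus had the higher median N-MYC fold in the highest quintile and not in the fourth or the third. Their median EZH2 and p300 folds were the higher in each of these quintiles.

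**Figure D2:**
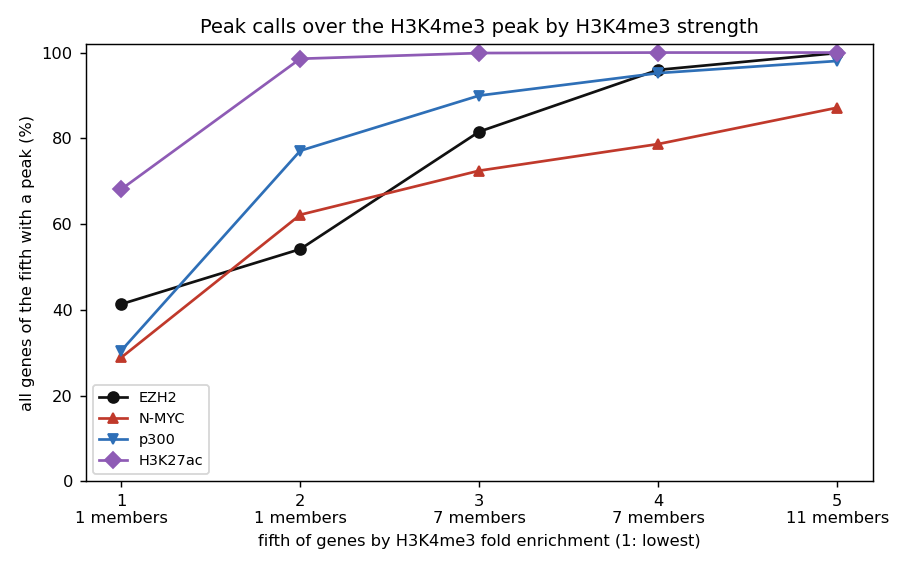
Lines give, for each quintile of genes by H3K4me3 fold enrichment (horizontal axis, lowest to highest), the percentage of all genes with an EZH2, N-MYC, p300 or H3K27ac peak over the H3K4me3 peak (vertical axis), and the tick labels give the number of splicing genes in the quintile. EZH2 rose from 41.3% to 99.9% and N-MYC from 28.9% to 87.1%, and 25 of the 27 splicing genes lay in the 3 highest quintiles.

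By median fold over the genes with a known strand, the SR protein genes carried the strongest calls of the 3 families. Their median EZH2 fold was 9.0, against 5.69 at the Snrp genes, 6.55 at the Sf3 genes and 5.72 at all genes with H3K4me3 and EZH2. In EZH2 fold, 7 of the 10 SR genes with a call stood at or above the 80th percentile of the genes carrying EZH2. Of the genes with a known strand, 0 of 9 Snrp and 1 of 7 Sf3 genes did. These counts leave out Snrpb and Snrpd1, whose EZH2 folds of 8.78 and 8.80 were above the 7.73 of Srsf9, at percentile 82.1. H3K4me3 was strong at the SR genes too, with 6 of 11 at or above the 80th percentile in H3K4me3 fold. Over all genes of the highest H3K4me3 quintile the median EZH2 fold was 7.41. The EZH2 percentiles are not set against genes of equal H3K4me3, and a trait of the SR family apart from H3K4me3 was not tested. The median H3K27ac fold of the SR genes was 21.9 (12.9 over all genes) and their H3K4me3 peaks had a median width of 3469 bp (2507.5 bp).

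Srsf1, the founding SR protein and a known oncogene (chromosome 11, start 88046499), had an EZH2 fold of 10.2, an N-MYC fold of 8.27 and a p300 fold of 8.28, with H3K27ac at 26.5 and H3K4me3 at 46.2. Its EZH2 fold stood at percentile 96.5 and its H3K4me3 fold at percentile 99.1. The EZH2 peak lay outside the 1 kb window, at 88047716 to 88049163, because the annotated transcript starts 874 bp downstream of the gene record. Srsf2, which binds exonic enhancers and is mutated in myeloid neoplasms, had an EZH2 fold of 9.69, an N-MYC fold of 12.5 and a p300 fold of 10.9, at percentiles 95.2, 95.3 and 98.6. It was high in all 3 lists and had the widest H3K4me3 peak of the 27 genes, at 5261 bp. Srsf6, a regulator of alternative exons, had EZH2 at 10.2, N-MYC at 13.3, p300 at 7.75, H3K27ac at 29.1 and H3K4me3 at 48.0, the last at percentile 99.5.

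Srsf7, an SR protein with a zinc knuckle, carried the strongest N-MYC peak of the 25, at a fold of 16.7 (percentile 99.4), with EZH2 at 8.60, p300 at 7.26 and H3K4me3 at 40.7. That peak lay on chromosome 17 at 80206571 to 80207665, and the start of Gemin6, a subunit of the SMN complex that loads Sm rings, lay 135 bp from that of Srsf7, so the peak cannot be assigned to either gene. Srsf3, which also couples splicing to mRNA export, went the other way: its H3K4me3 fold was 38.6 and its H3K27ac fold 27.4, but its EZH2 fold of 5.28 stood at percentile 39.7 and was the lowest of the SR genes with a call. Srsf4 and Srsf5 had high EZH2 folds of 9.60 and 9.40 with N-MYC folds nearer the middle, 7.59 and 6.71. Srsf10, a splicing repressor when dephosphorylated, showed the reverse, with N-MYC at 10.8 (percentile 91.5) and EZH2 at 5.37 (percentile 41.5). Srsf9 and Srsf11 had EZH2 folds of 7.73 and 6.78 and N-MYC folds of 4.52 and 5.81. High N-MYC and high EZH2 therefore met at Srsf2, Srsf6 and Srsf7 but not at each SR gene. The start of Mfsd11 lay 87 bp from that of Srsf2, so its peaks too cannot be assigned to either gene. The same held for Srsf11, with a start or gene end of Lrrc40 15 bp from the Srsf11 start.

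**Figure D3:**
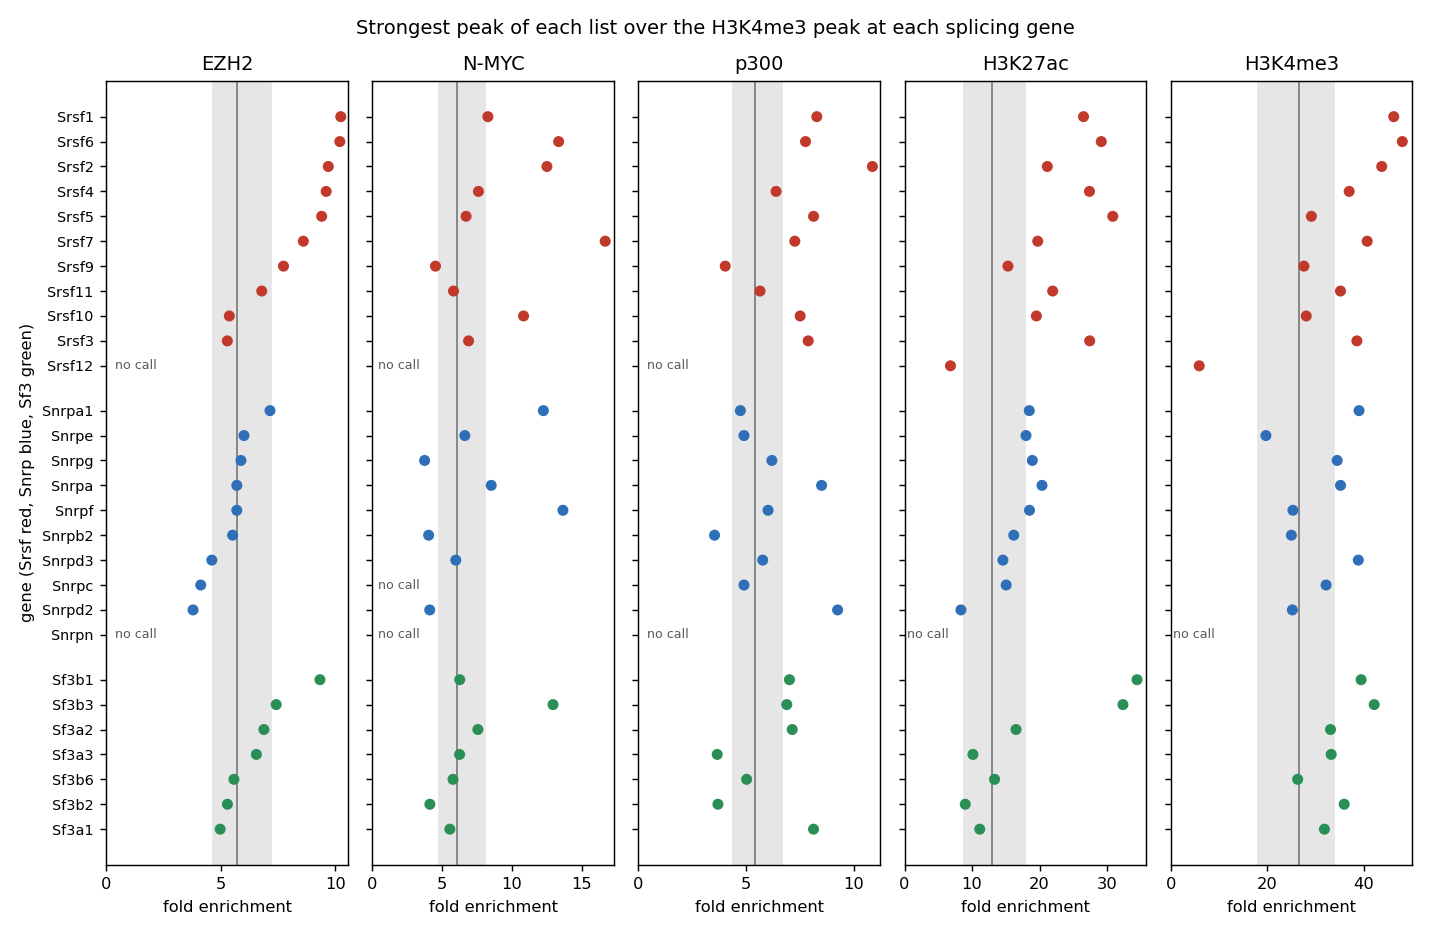
Points give the fold enrichment (horizontal axes) of the strongest EZH2, N-MYC, p300, H3K27ac and H3K4me3 peak over the H3K4me3 peak at each of the 28 genes (rows, coloured by family), from 1 library per list, and a gene without a peak is marked as no call. The SR genes hold most of the high EZH2 values, Srsf7 stands highest for N-MYC at 16.7, and Srsf12 and Snrpn carry the missing calls together with Snrpc for N-MYC.

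The snRNP protein genes with a known strand and H3K4me3 had calls as complete as the SR genes but at lower median folds. Of the 9 with H3K4me3, EZH2 and p300 were called at 9 and N-MYC at 8, with a median EZH2 fold of 5.69 and a median H3K4me3 fold of 32.2. Snrpa1, a protein of the U2 snRNP, had the highest EZH2 fold of these 9 at 7.14, with N-MYC at 12.2, p300 at 4.73 and H3K4me3 at 39.0. Snrpe and Snrpg, both members of the Sm ring, followed in EZH2 at 6.01 and 5.88. Their N-MYC folds were 6.62 and 3.74, the second at percentile 5.71. Snrpf, another Sm protein, had the highest N-MYC fold of the family at 13.6 (percentile 97.3) beside an EZH2 fold of 5.69 (percentile 48.4).

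Snrpd2, an Sm protein, had the lowest EZH2 fold of all 26 genes with a call, 3.79, at percentile 6.87. Its p300 fold of 9.25 stood at percentile 95.5, so EZH2 and p300 were at opposite ends at this start, which lies 249 bp from an end of Qpctl. Snrpd3, which pairs with Snrpb in the Sm ring, had an EZH2 fold of 4.61 (percentile 23.5) under an H3K4me3 fold of 38.8 (percentile 89.0), with N-MYC at 5.97 and p300 at 5.77. A start or gene end of Gucd1 lay 70 bp from the Snrpd3 start, so these peaks cannot be assigned to either gene. Snrpa, the U1 protein that binds a stem-loop of U1 RNA, had 5.69 for EZH2, 8.51 for N-MYC, 8.50 for p300 and 35.2 for H3K4me3, with the start of BC024978 490 bp away. Snrpb2, its U2 counterpart, was low for N-MYC at 4.03 (percentile 9.89) and for p300 at 3.53 (percentile 5.56), and near the middle for EZH2 at 5.51 (percentile 45.1). The 5 Sm genes with a strand and an N-MYC call thus spread from 3.74 to 13.6 in N-MYC fold although their proteins enter one ring.

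The Snrp genes without a known strand, Snrpb and Snrpd1, gave high values at one end each. Snrpb, the Sm protein B gene, carried EZH2 at 8.78, N-MYC at 8.96, p300 at 5.15, H3K27ac at 35.5 and H3K4me3 at 34.1 at its higher-coordinate end (chromosome 2, 130179382) and no peak of any list at the other. Snrpd1 carried EZH2 at 8.80, N-MYC at 15.4, p300 at 5.64, H3K27ac at 30.8 and H3K4me3 at 36.3 at its lower-coordinate end (chromosome 18, 10617796) and none at the other. Both EZH2 folds were above the 7.14 of Snrpa1, the highest of the Snrp genes with a strand.

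The SF3 genes had calls of all 4 active lists at 7 of 7. These 7 lay in the 3 highest quintiles of H3K4me3, where all 4 were called together at 60.2% to 86.4% of all genes. Sf3b1, the scaffold of SF3B that holds the branch point and is mutated in several leukaemias, had the highest EZH2 fold of the family, 9.32 (percentile 93.8), and the highest H3K27ac fold of the 27 genes, 34.4 (percentile 99.6). Its N-MYC fold of 6.25 stood at percentile 53.1 and its p300 fold of 7.01 at percentile 79.5. Sf3b3, the SF3B subunit next to Sf3b1, had EZH2 at 7.41, N-MYC at 12.9 (percentile 96.2), H3K27ac at 32.4 and H3K4me3 at 42.1, with the start of Cog4 206 bp away. Sf3a2 came next in EZH2 at 6.88, with N-MYC at 7.55 and a start or gene end of Plekhj1 109 bp away. Sf3a1 was lowest in EZH2 at 4.97 and had a p300 fold of 8.13 (percentile 89.4), with the start of Ccdc157 61 bp away.

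The remaining SF3 genes held no EZH2 fold above the 6.55 of Sf3a3. Sf3b2 had 5.29 for EZH2, 4.12 for N-MYC and 3.69 for p300 under an H3K4me3 fold of 35.9. Sf3a3 had 6.55, 6.24 and 3.66, and Sf3b6, which lies at the branch-point adenosine, had 5.57, 5.77 and 5.02 in the same order. Of the genes without a known strand, Sf3b4 carried EZH2 at 5.83, N-MYC at 3.43 and p300 at 7.26 at its lower-coordinate end (chromosome 3, 96172506). Sf3b5, a short gene whose ends share the same peaks, carried 5.20, 4.67 and 7.26. Neither of these had SUZ12 or H3K27me3 at either end, nor did Snrpb or Snrpd1.

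Srsf12, Snrpn and Snrpc were the genes with a missing call. Srsf12, the least studied SR gene (chromosome 4, start 33208991), carried H3K4me3 at a fold of 5.92 over 478 bp, at percentile 5.59 of all genes with the mark, and H3K27ac at 6.80, with no EZH2, N-MYC or p300 peak. In the lowest quintile of H3K4me3, where it lay, EZH2 was called at 41.3% of genes, N-MYC at 28.9% and p300 at 30.5%. Snrpn, the imprinted paralogue of Snrpb that is most abundant in brain (chromosome 7, start 60450177), had no peak of any of the 7 lists within 1 kb of any of its 4 annotated transcript starts. Inside the gene lay 1 H3K4me3 peak of fold 12.9 and 1 H3K27ac peak of fold 4.71, 15.4 and 15.5 kb from the nearest of those starts, and 4 H3K27me3 peaks with folds of 3.88 to 7.16 between 60390344 and 60392818. Snrpc, the U1 protein that contacts the 5′ splice site, lacked N-MYC only: its EZH2 fold was 4.12 (percentile 12.8), p300 4.90, H3K27ac 15.1 and H3K4me3 32.2.

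The nearest SUZ12 peak lay 10.8 kb from the start at the closest (Srsf6) and 70.3 kb away at the median, against a median of 118.6 kb over genes with H3K4me3. The nearest H3K27me3 peak lay 35.8 kb away at the median, against 33.5 kb, and within 2 kb at 2 of 28 genes, against 16.2%. Those were Srsf12 (1.04 kb) and Snrpb2 (1.62 kb). Snrpb2 nevertheless carried all 4 active calls, and Srsf12 did not.

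EZH2 summits lay on the transcribed side of the start. The summit of the strongest EZH2 peak was downstream of the gene record start at 26 of 26 genes, by 103 to 1625 bp and 380 bp at the median, against 83.9% and 321 bp over all genes with H3K4me3 and EZH2. With the EZH2 peak nearest to the start in place of the strongest, 21 of 26 were downstream, against 82.7% of all genes, so the first count rests on the choice of peak. H3K4me3 summits were downstream at 27 of 27 (86.0% of all genes), with a median of 327 bp (330 bp). N-MYC summits lay on both sides of the start, at a median signed position of 72 bp (59 bp over all genes), and downstream at 16 of 25 (60.5%). Their quartiles were −25 and 342 bp. p300 summits had a median signed position of 37.5 bp (50 bp) and were downstream at 16 of 26 (57.2%). Measured from the nearest transcript start, the p300 median was −3.5 bp. Upstream and downstream summits offset each other in the N-MYC and p300 medians, so these do not give a distance to the start.

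Along the same axis, EZH2 sat nearer to H3K4me3 than to N-MYC. The median distance between summits was 85.5 bp for EZH2 and H3K4me3 (114 bp over all genes), 300 bp for EZH2 and N-MYC (324 bp) and 146 bp for N-MYC and p300 (160 bp). With the strongest peak of each list, the EZH2 summit lay downstream of that of N-MYC at 22 of 25 genes (88.0%, against 73.0% of all genes with both). Sf3b1 was an example, with N-MYC at −25 bp, p300 at −17 bp and EZH2 at +410 bp. At Srsf3 the N-MYC summit was at −93 bp and that of the stronger EZH2 peak at +795 bp, while its weaker EZH2 peak, of fold 4.42, had its summit upstream of both at −229 bp. At Srsf7 the N-MYC and EZH2 summits lay 9 bp apart, at +366 and +375 bp, so the spacing was not shared by all.

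**Figure D4:**
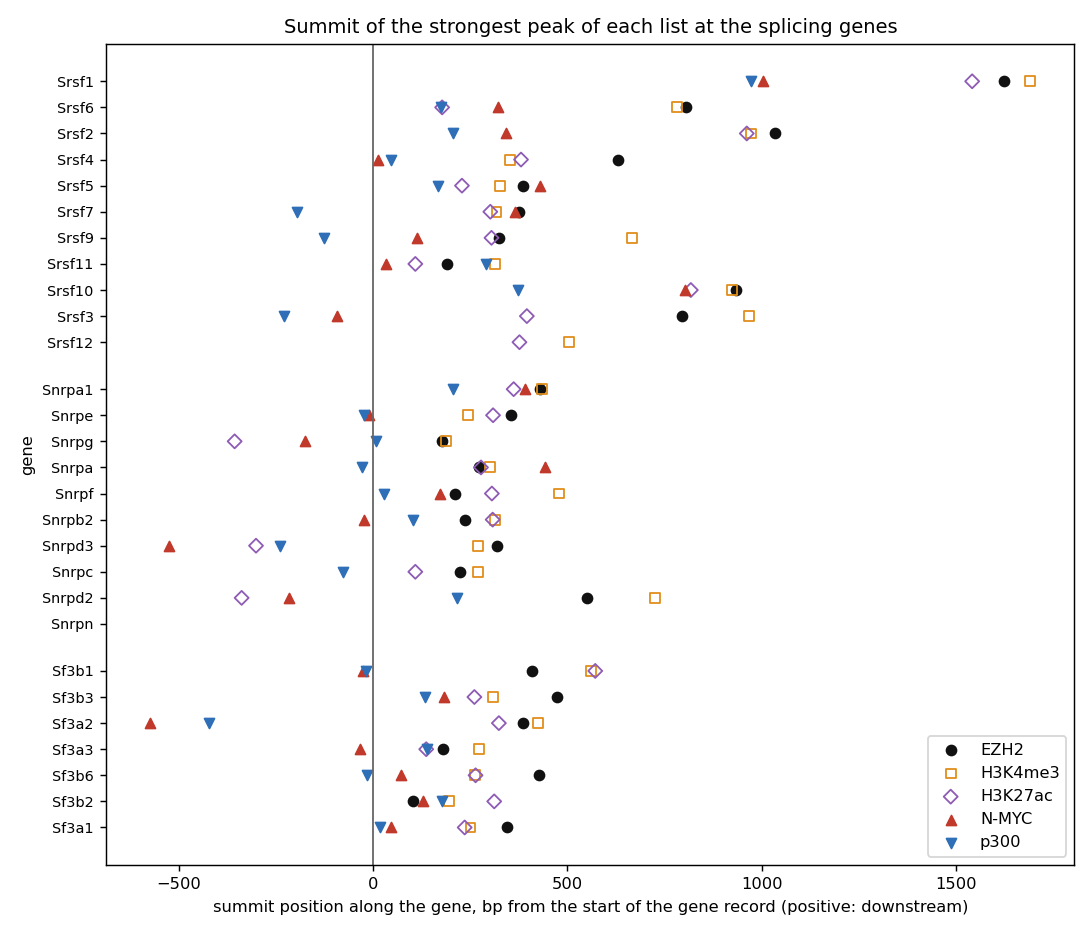
Symbols give the position of the summit of the strongest peak of each list at each gene (rows), in bp from the start of the gene record along the strand, with downstream positive. EZH2 lay to the right of 0 in 26 of 26 genes, between 103 and 1625 bp, while N-MYC and p300 lay on both sides.

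Across the splicing genes, EZH2 fold was related more closely to H3K27ac, H3K4me3 and N-MYC fold than to p300 fold. Spearman's rho between the EZH2 and H3K27ac folds was 0.668 over 26 genes, against 0.298 over all 6094 genes with both. Between EZH2 and H3K4me3 it was 0.539 over 26 genes (0.464 over 6467), between EZH2 and N-MYC 0.507 over 25 (0.189 over 4795) and between EZH2 and p300 0.199 over 26 (0.21 over 5534). These are descriptions over genes of the same libraries, which share gene starts and base composition and are not replicates. Snrpd3 and Srsf3, with strong H3K4me3 and low EZH2, and Srsf5, with EZH2 at 9.40 under an H3K4me3 fold of 29.1 (percentile 58.5), show how loosely the values were tied.

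**Figure D5:**
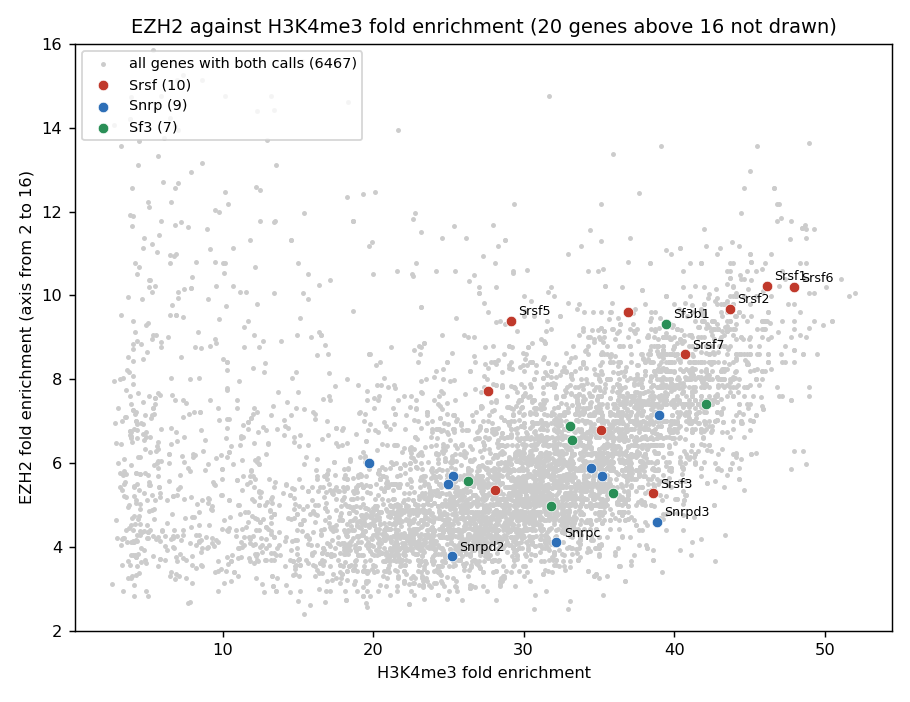
Points give the EZH2 fold enrichment (vertical axis, drawn from 2 to 16) against the H3K4me3 fold enrichment (horizontal axis) of genes with both calls, grey for all genes and coloured by family for the splicing genes. Srsf1 and Srsf6 lie at the upper right, at EZH2 folds of 10.2, and Snrpd2 lies lowest at 3.79.

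The pattern was not peculiar to these families. Of the other splicing genes, 47 had a strand and H3K4me3, and over it EZH2 was called at 87.2%, N-MYC at 78.7%, p300 at 93.6% and all 4 active lists at 76.6%. The figures were 93.2%, 94.9%, 96.6% and 89.8% for 59 cytosolic ribosomal protein genes, and 93.0%, 83.7%, 90.7% and 79.1% for 43 translation initiation factor genes. The splicing genes stood at 96.3%, 92.6%, 96.3% and 92.6% in the same order. SUZ12 was called over the H3K4me3 peak at 0 genes of each of these 3 other sets, and H3K27me3 at 1 gene, a translation initiation factor.

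Counting also genes without a known strand, read at either end, 54 of 56 other splicing genes carried H3K4me3, 47 EZH2 over it, 43 N-MYC, 51 p300, 0 SUZ12 and 1 H3K27me3. Rbfox2 and Srpk2, a splicing regulator and an SR protein kinase, lacked H3K4me3 where they were read. With the gene ends of Rbfox2 pooled, EZH2, SUZ12 and H3K27me3 each had a call within 1 kb of an end, and N-MYC, p300 and H3K27ac had none. Whether those calls lay at the same end was not read. At the start of the Srpk2 gene record no list had a call, and annotated transcript starts of Srpk2 were not read. Prmt5, which methylates Sm proteins, had the highest p300 fold of the 5 named here, 13.0, with N-MYC at 7.97 and EZH2 at 5.53. U2af1, the reader of the 3′ splice site, had EZH2 at 9.14 and N-MYC at 7.91. Snrnp70, the U1 protein whose symbol falls outside the rule, had 7.87 and 9.83. Hnrnpa1, a silencer-binding repressor of exons, had N-MYC at 13.6 and EZH2 at 6.82. Prpf8, at the core of the U5 snRNP, had N-MYC at 4.34 and EZH2 at 6.75.

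In the promoter sequences, the canonical E-box was rare. CACGTG lay in the 300-base window of 1 of 28 genes (3.57%), against 12.7% of genes with H3K4me3 and N-MYC and 7.91% of all genes. The 28 include Srsf12, Snrpc and Snrpn, which had no N-MYC call, so they are not matched to the genes with H3K4me3 and N-MYC. CACGCG lay in 8 (28.6%, against 23.5% and 12.2%). CCGGAAG lay in 14 (50%, against 21.9% and 11.9%) and TATAAA in 4 (14.3%, against 6.01% and 13.3%). Median GC content was 60.2%, near the 61.7% of all genes with H3K4me3. The window held the N-MYC summit at 10 of 25 genes, so these counts do not describe the sequence under most N-MYC peaks. A match is a run of letters and not a measured binding site.

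Snrpa, printed first above, was the gene with CACGTG. At its outer start the letters began at −73 and −32 bp, 517 and 476 bp from the N-MYC summit. At its second annotated start, 27195760, another CACGTG began at −69 bp and the N-MYC summit lay at −67 bp, 2 bp from the first letter and within the motif. This second window was looked at after the values of the first were known. In Srsf6, CACGCG began at −247, −119 and −46 bp, 367 to 568 bp from the N-MYC summit. In Srsf7 no E-box of either kind lay in the window, and its CCGGAAG began 520 bp from the summit of the strongest N-MYC peak of these genes. In Snrpe the CCGGAAG copies began 3 and 6 bp after the start and the N-MYC summit lay at −11 bp. In Snrpb2, CCGGAAG began at −28 and −9 bp, with the N-MYC summit at −24 bp. Snrpc, without an N-MYC call, held CCGGAAG too, and the Srsf12 and Snrpn windows printed above held none of the 4 motifs. At another annotated Snrpn start, 60047978, the window held TATAAA on the other strand. The printed Snrpn window had 2 CpG dinucleotides and a GC content of 45.0%, the lowest of the 28 in both.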

How the data were processed

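Peaks were read from 1 list per antibody. Per the submitters' processing notes, which name no versions or order, FastQC, Bowtie2, SAMtools, MACS2 and deepTools were used with mm10/GRCm38. Whether the inputs served as controls is not given in the sources used here. Fold enrichment, a linear ratio over local background, was used with the values the authors deposited. The p-values and q-values were deposited by the authors as −log10 values, of which the q-values end at about 0.01. Summit positions were used as deposited, and the whole-number score column was not used.

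A gene counted as called when a peak overlapped the window of 1 kb on each side of the gene record start, or the H3K4me3 peak reaching that window, by at least 1 bp. Where several peaks did, the one with the highest fold was used. Percentiles are ranks among all genes with H3K4me3 that carry the same list. Gene starts came from RefSeq tables (GRCm38.p6), and 4395 of 21887 protein-coding genes without a strand there were left out of the background. H3K4me3 summits lay within 1 kb of a start in 52.7%, and in 3.60% to 4.12% once starts were shifted by 10000 or 100000 bp, so files and tables share a build. Python 3.11.15, pandas 2.3.3, numpy 2.4.6, scipy 1.17.1 and matplotlib 3.10.9 were used, and the overlap code was tested on simulated peaks.

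Named genes were, per family, the 3 highest and the lowest by EZH2 fold, every gene lacking an active call, and Srsf1, Srsf2, Srsf3, Srsf7, Sf3b1, Snrpd3 and Snrpn. Others were named after their values were seen. A marker gene is not reported here. The genes and lists were chosen with earlier results of these data known. Alternatives changed the window, the peaks used, the overlap, the start, the peak that stands for a gene, the motif and the genes with close neighbours.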

Additional observations from a re-analysis of the deposited data

How the results depend on the processing

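Of 121 alternatives over 23 counts and medians, 117 left the value within the limits set for no change. Those limits were wide, and the 117 include stricter settings that could not lower a count of 0. The count with all 4 active lists, 25 in the main reading, was 22 with a q-value of at most 1e-05. It was 20 with a fold of at least 4 and 19 with lists of equal length, and these were counted as no change. With a window of 2 kb, H3K27me3 was called at 2 of 28 starts in place of 0. Without the 9 genes that have another gene start within 1 kb, all 4 active lists were called together at 16 genes, of the 19 left. The 19 include Snrpn, which had no H3K4me3 peak at its start and was not among the 27 genes of the main count. CACGTG or CACGCG lay in 9 promoters in place of 1. The median p300 summit moved from 37.5 to −3.5 bp when measured from the nearest transcript start. SUZ12 was at 0 starts with a window of 2 kb, with any transcript start and with the 4 genes without a strand added. The other alternatives for SUZ12 only made a call stricter, so they could not change a count of 0. The alternatives chosen after seeing the data were those that added the 4 genes without a strand, that used any transcript start for the counts over the H3K4me3 peak, and that measured summits from the nearest transcript start. No paired analysis was possible because each antibody had 1 library. Unknown depth, 1 library per list and lists of unequal length limit what a missing peak or a difference in fold can show.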
